A study of Mus musculus with 10 samples.

Results

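The genes described here are 8 mouse genes that mark mast cells: the tryptase genes Tpsb2 and Tpsab1, the chymase genes Cma1 and Mcpt4, the carboxypeptidase gene Cpa3, and the receptor genes Kit, Ms4a2 and Fcer1a. They were taken by symbol from a deposited table of normalized counts, and 8 of 8 were found among its 23086 gene symbols. The table covers 10 urothelial (bladder) tumours of the mouse line BBN963, 5 of the genotype ATM-WT and 5 of the genotype ATM-KO. ATM, a kinase, relays the signal of broken DNA, and the comparison asks how the RNA of tumours differs with the loss of this gene in the tumour line. Both groups were grown as tumours in mice, taken at the same set size and frozen, and whole tumour RNA was sequenced, so the RNA of host cells in the tumour was measured together with that of the tumour cells. The labels give no host strain, age, sex or site, leave the number of knockout clones open, and do not state that each tumour came from its own animal. The p-values below therefore measure only the spread between these samples, which may be in part technical.

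Mast cells are tissue-resident blood cells that carry granules packed with serine proteases and a carboxypeptidase, held on the proteoglycan serglycin. The receptor kinase KIT, bound by stem cell factor, keeps them alive, and the high-affinity IgE receptor triggers release of the granules when its bound antibody is cross-linked by antigen. That receptor consists of an IgE-binding alpha chain (Fcer1a), a signal-amplifying beta chain (Ms4a2) and a gamma chain (Fcer1g) that other Fc receptors of blood cells share. In mice, Mcpt4, Cma1, the tryptases and Cpa3 are known mainly from mast cells of connective tissue, and Mcpt1 and Mcpt2 from mast cells of mucosa. GATA factors, MITF and other basic helix-loop-helix factors are known regulators of mast cell genes.

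The promoters of the mast cell genes are shown because several of them moved together between the genotypes. RefSeq promoter windows (build GRCm38.p6, 250 bases before to 50 after the start site) were found for 6 of the 8 genes, namely Cma1, Mcpt4, Cpa3, Kit, Ms4a2 and Fcer1a. The letters GATAA, the core bound by GATA factors, were searched on both strands. They were present in 5 of the 6 windows, against 25.8% of all 27025 promoter windows and 16.6% of the 11593 windows of genes tested. The windows of genes lower in ATM-KO held them in 16.1% of cases. Ms4a2 held 3 matches, whose first bases lie at -224, -37 and -10 from the start site, and Mcpt4 1 match at -102. Cpa3 held 1 match at -45, Cma1 1 at -194 and Fcer1a 1 at -92, and Kit held none in this window. The TATA box letters TATAAA were present in 3 of the 6 windows, those of Mcpt4, Cpa3 and Fcer1a, against 8% of the windows of genes tested. The E-box letters CANNTG, where N is any base, were present in 4 of the 6 windows, against 64.2% of the windows of genes tested. A match is a description of the sequence and not a measured binding site. The 250 bases before the start site of 4 genes follow, 5′ to 3′ on the strand of the gene, with GATAA or its complement TTATC in capitals. Ms4a2 has the most matches, Mcpt4 and Cpa3 are proteases with both a GATA and a TATA match, and Kit is the gene without either.
Ms4a2, chr19:11623720-11623969, minus strand: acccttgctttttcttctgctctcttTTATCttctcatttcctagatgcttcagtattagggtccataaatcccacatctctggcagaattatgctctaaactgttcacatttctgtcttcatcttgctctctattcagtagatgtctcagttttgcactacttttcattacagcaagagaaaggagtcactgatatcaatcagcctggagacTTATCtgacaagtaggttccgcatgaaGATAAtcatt
Mcpt4, chr14:56062311-56062560, minus strand: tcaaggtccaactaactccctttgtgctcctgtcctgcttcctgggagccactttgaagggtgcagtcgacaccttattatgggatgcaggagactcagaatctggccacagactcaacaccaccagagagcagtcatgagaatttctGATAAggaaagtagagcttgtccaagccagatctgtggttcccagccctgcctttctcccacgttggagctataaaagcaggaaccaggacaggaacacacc
Cpa3, chr3:20242182-20242431, minus strand: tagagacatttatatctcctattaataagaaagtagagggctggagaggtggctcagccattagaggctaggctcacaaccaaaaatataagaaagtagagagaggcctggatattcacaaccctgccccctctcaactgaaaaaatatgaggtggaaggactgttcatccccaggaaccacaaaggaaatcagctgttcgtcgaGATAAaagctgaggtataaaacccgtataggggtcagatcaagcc
Kit, chr5:75574737-75574986, plus strand: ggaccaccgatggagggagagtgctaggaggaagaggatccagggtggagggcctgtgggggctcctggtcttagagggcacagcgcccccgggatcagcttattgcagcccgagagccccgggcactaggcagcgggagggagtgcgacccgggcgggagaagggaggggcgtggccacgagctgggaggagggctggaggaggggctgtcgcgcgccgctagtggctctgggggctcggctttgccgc

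**Figure D1:**
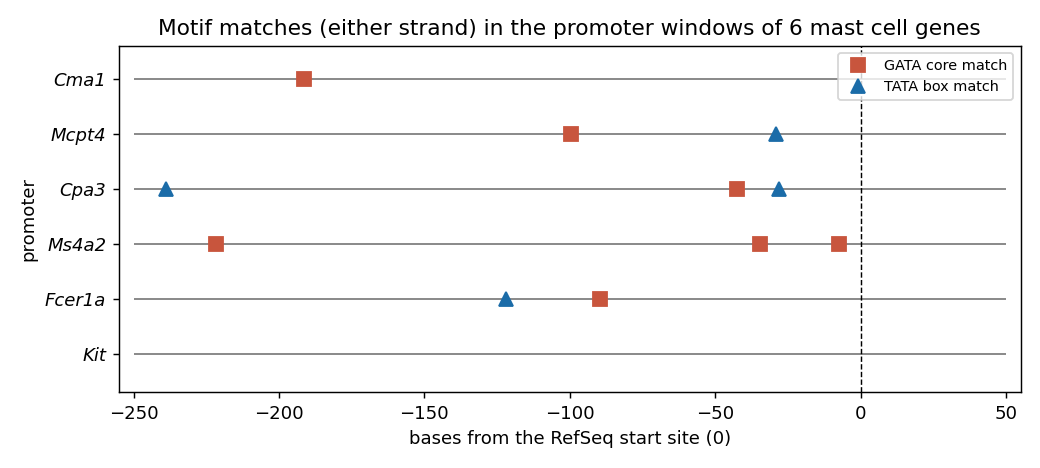
Matches to the GATA core (GATAA, red squares) and the TATA box (TATAAA, blue triangles) on either strand in the promoter windows of 6 mast cell genes, by distance in bases from the RefSeq start site, which is the dashed line at 0. Ms4a2 has 3 GATA matches, Cma1, Mcpt4, Cpa3 and Fcer1a have 1 each, and Kit has none; Mcpt4 and Cpa3 each have a TATA match about 30 bases before the start.

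The libraries were alike in total, at 20.2 to 22.3 M (mega) normalized counts. The spacing of low values gives a rough estimate of 20.6 to 28.3 M reads behind each library, except ATM-WT library A2 with 8.83 M, so 1 read is worth 0.762 to 1.02 normalized counts, and 2.46 in A2. Genes listed at 0 numbered 4824 in A2 and 4266 in A4, both ATM-WT, and 2225 to 3602 elsewhere. Atm itself was at 485 ± 183 normalized counts in ATM-WT and 455 ± 139 in ATM-KO (SD, n = 5 each, limma adjusted p = 0.85), and the labels do not give the lesion made, so its level does not check the genotype. Of 16517 genes with a mean of at least 10 normalized counts over the 10 libraries, limma at an adjusted p below 0.05 called 24.3% lower and 22.1% higher in ATM-KO, and 18.2% had every ATM-KO value below every ATM-WT value. Levels are given as normalized counts with SD over 5 libraries, and differences as log2 fold changes on log2(value + 1), with the SE, where a negative value is lower in ATM-KO. That scale understates changes of low genes.

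RNA of the 5 proteases of the set and of the beta chain of the IgE receptor was present in every ATM-WT tumour. In the ATM-KO tumours it was at 5.55 normalized counts or less, with the exception of Mcpt4 in library A14 at 34.8. All 5 proteases fell in ATM-KO, with log2 fold changes of -3.90 (Mcpt4) to -6.49 (Tpsb2). Ms4a2 fell by 6.27, and Kit fell less, by 1.13, to 44.7% of its ATM-WT mean. In all, 7 of the 7 genes of the set that were tested were lower and 0 higher, beside 24.3% and 22.1% of all genes tested, and for the same 7 no ATM-KO value reached an ATM-WT value, beside 18.2% of all genes. Fcer1a, with a mean of 9.46, lay below the minimum of 10 and was left out of the fit. All but Kit among the 7 reached that minimum only through their ATM-WT values, so these counts describe the genes and do not test them as a group. In bulk tumour RNA, fewer mast cells and less of this RNA per mast cell cannot be told apart.

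**Figure D2:**
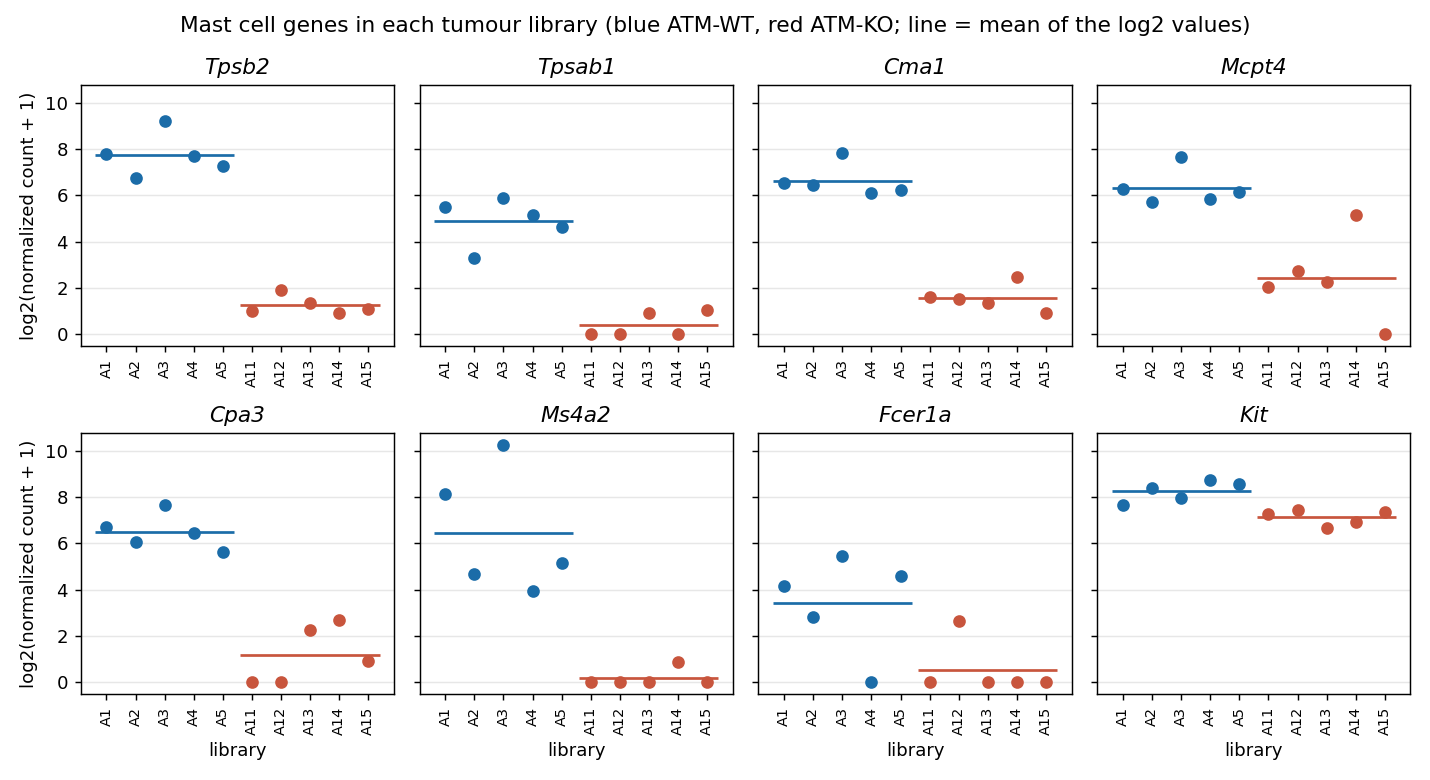
Levels of the 8 mast cell genes in each library as log2(normalized count + 1), ATM-WT libraries A1 to A5 in blue and ATM-KO libraries A11 to A15 in red, with a line at the mean of the log2 values of each group. The groups are apart for 7 genes and overlap for Fcer1a, where ATM-WT library A4 is at 0 and ATM-KO library A12 at 5.25 normalized counts.

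The tryptases are trypsin-like proteases that work as tetramers on heparin. Tpsb2 was at 219, 106, 593, 209 and 152 normalized counts in ATM-WT libraries A1 to A5, and at 1.02, 2.76, 1.52, 0.889 and 1.09 in ATM-KO libraries A11 to A15. The lowest ATM-WT library, A2, was far above the highest ATM-KO library, A12, and the ATM-KO values correspond to few reads each. Tpsb2 averaged 256 ± 194 and 1.46 ± 0.768, a log2 fold change of -6.49 ± 0.48 (95% interval -7.54 to -5.45, limma adjusted p = 7.58e-07). Only 1.11% of the genes tested had a lower fold change than Tpsb2. Tpsab1 held 44.1, 8.77, 57.3, 34.9 and 24.03 normalized counts in ATM-WT. In ATM-KO the table gives it as 0 in A11, A12 and A14, 0.904 in A13 and 1.06 in A15. The means of Tpsab1 were 33.8 ± 18.6 and 0.392 ± 0.540, a log2 fold change of -4.50 ± 0.63 (limma adjusted p = 9.11e-05). In both tryptases A3 was the highest ATM-WT library, A1 the second and A2 the lowest. RefSeq lists Tpsab1 in the reference mouse assembly as a transcribed pseudogene, and GENCODE M21 lists it as protein coding. The transcripts of the tryptase genes share few 31-base words, 0.557% of those of Tpsb2, so that reads of this length mostly tell them apart.

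Both chymase genes of the set lie in the protease cluster of chromosome 14. Cma1 was at 92.2, 86.3, 226, 68.6 and 73.6 normalized counts in ATM-WT and at 2.04, 1.85, 1.52, 4.46 and 0.892 in ATM-KO. Its 4 ATM-WT libraries other than A3 lay close together, with a mean of 80.2 ± 10.9. Over all 5 libraries the means of Cma1 were 109 ± 65.7 and 2.15 ± 1.36, a log2 fold change of -5.07 ± 0.47 (limma adjusted p = 4.02e-06). Mcpt4, the chymase closest in action to the human enzyme, held 77.3, 51.8, 199, 56.3 and 69.7 normalized counts in ATM-WT. In ATM-KO it was at 3.07, 5.55, 3.81, 34.8 and 0, so library A14 stood above the other ATM-KO libraries and below every ATM-WT library. The means of Mcpt4 were 90.9 ± 61.5 and 9.45 ± 14.3, a log2 fold change of -3.90 ± 0.79 (limma adjusted p = 0.0014). Without A14 the ATM-KO mean was 3.11 ± 2.32, lower by more than 1.5 times, and the log2 fold change -4.58 (limma adjusted p = 1.91e-04). Of the 31-base words of Mcpt4 10.2% also occur in its neighbour Cma2, and of those of Cma1 10.6% occur in the gene model Gm48934, so part of their reads could be counted for either.

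Cpa3, the granule carboxypeptidase that trims peptides from their C-terminal end, was at 104, 66.4, 199, 86.9 and 48.1 normalized counts in ATM-WT. In ATM-KO it was listed at 0 in A11 and A12, at 3.81 in A13, 5.36 in A14 and 0.890 in A15. The lowest ATM-WT value was thus well above the highest ATM-KO value. Cpa3 averaged 101 ± 58.8 and 2.01 ± 2.44, a log2 fold change of -5.33 ± 0.64 (limma adjusted p = 2.88e-05). Without A14 the ATM-KO mean of Cpa3 was 1.17 ± 1.80, more than 1.5 times lower. The summed level of the 5 proteases ran from 319 in A2 to 1274 in A3 among ATM-WT tumours and from 3.93 in A15 to 45.5 in A14 among ATM-KO tumours. Per kilobase of the longest GENCODE M21 transcript, the ATM-WT medians were 162 normalized counts for Tpsb2, 79.1 for Cma1, 62.9 for Mcpt4, 60.0 for Cpa3 and 18.1 for Tpsab1. The ATM-WT ranges per kilobase of Cma1 (63.0 to 207), Mcpt4 (46.7 to 180) and Cpa3 (33.2 to 137) overlapped. All 3 genes were highest in A3, and their order was not compared library by library. Tpsab1 at most reached 29.7 per kilobase, below the lowest value of each of the other 4 proteases.

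Kit, the receptor of stem cell factor, was lower in ATM-KO but kept a clear level in every tumour. It was at 205, 336, 246, 422 and 383 normalized counts in ATM-WT and at 156, 171, 102, 119.9 and 163 in ATM-KO. Every ATM-KO tumour kept a level above 100 normalized counts, and the highest of them, A12 at 171, was below the lowest ATM-WT tumour, A1 at 205. The means of Kit were 318 ± 91.6 and 142 ± 29.8, a log2 fold change of -1.13 ± 0.24 (95% interval -1.65 to -0.62, limma adjusted p = 0.0018). That interval does not overlap the interval of any of the other 6 genes tested, of which Mcpt4 reached nearest to it at -2.18; the difference between genes was not tested. Of all genes tested 15.1% had a lower fold change than Kit, against 1.11% to 3.80% for the other 6. Within ATM-WT the order of Kit also differed, with A4 highest, then A5, A2 and A3, and A1 lowest.

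The alpha and beta chains of the IgE receptor are the parts that only a few cell types make. Ms4a2 was at 282, 24.6, 1230.5, 14.4 and 34.9 normalized counts in ATM-WT, and in ATM-KO it was listed at 0 in A11, A12, A13 and A15 and at 0.814 in A14. It varied more among ATM-WT tumours than any of the other 6 genes tested, 85.7 times between A4 and A3, against 2.06 (Kit) to 6.54 times (Tpsab1). The means of Ms4a2 were 317 ± 523 and 0.163 ± 0.364, a log2 fold change of -6.27 ± 1.05 (limma adjusted p = 3.72e-04). Without A3 the ATM-WT mean was 88.9 ± 129, more than 1.5 times lower, with a log2 fold change of -5.31 (limma adjusted p = 2.94e-04). Fcer1a was the lowest of the 8 genes, at 16.6, 6.13, 43.4, 0 and 23.2 normalized counts in ATM-WT and at 0, 5.25, 0, 0 and 0 in ATM-KO. The groups overlapped, since A4 of ATM-WT was listed at 0 and A12 of ATM-KO was not. The means of Fcer1a were 17.9 ± 16.9 and 1.05 ± 2.35. Without A3 the ATM-WT mean was 11.5 ± 10.4, more than 1.5 times lower, and the ATM-KO mean rests on A12 alone. With no minimum on the mean, its log2 fold change was -2.88 ± 0.96 (limma adjusted p = 0.031), and the exact two-sided permutation test over all 252 splits of 5 against 5 gave p = 0.048. That p lay between 0.071 and 0.087 without A1, A2, A3, A5, A11, A13, A14 or A15. For each of the 7 other genes the same exact test gave p = 0.0079, the smallest that these splits can give. The gamma chain gene Fcer1g, which macrophages and other blood cells also use, was at 1621 ± 584 and 2003 ± 156 normalized counts, a log2 fold change of 0.39 ± 0.23 that did not pass (limma adjusted p = 0.19).

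Within the ATM-WT group the same tumours were high for most of the genes. Library A3 was the highest for 7 of the 8 genes, all but Kit, and A1 was the second for 6 of these 7, all but Fcer1a. The summed level of the 7 genes other than Kit was 2548 normalized counts in A3 and 835 in A1, and 350 to 470 in A2, A4 and A5. A3 and A1 also had the highest summed fibroblast markers, 580081 and 563119 normalized counts against 160674 to 247364 in the other ATM-WT libraries. Macrophage markers were likewise highest in A3 and A1, at 68494 and 59266 against 23137 to 42373. So were endothelial markers, at 4356 and 4766 against 2678 to 3997, while T cell markers were highest in A5. A3 and A1 had the lowest summed epithelial markers, 106089 and 99030 against 167033 to 289632. The skeletal muscle markers summed to 2513 in A3 and to 85.5 to 192 in the other ATM-WT libraries. The part of these other cells in the order of the mast cell genes was not tested. Without A3, the log2 fold changes of the 7 genes tested were -6.12 (Tpsb2) to -1.21 (Kit), and all 7 had an adjusted p below 0.05 in limma.

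By a measure of likeness set out for all genes, the 8 genes outside the set whose pattern over the 10 libraries was nearest to the mean pattern of the 7 tested members of the set were Cryab, Hspb2, Sema3d, Gm1673, Cldn1, Sytl5, Sod3 and Kcne4. The root mean square difference from that pattern, on the log2 scale, was 0.44 for Cryab to 0.56 for Kcne4. The members are part of that mean pattern. Among them, Cma1 was nearest at 0.35, Tpsab1 was at 0.64, Cpa3 at 0.72, Mcpt4 and Tpsb2 at 1.01, Ms4a2 at 1.44 and Kit at 1.97. The nearest gene outside the set, the small heat shock protein gene Cryab, was at 1280.3, 331, 2054, 866 and 716 normalized counts in ATM-WT and at 57.8, 26.5, 53.8, 64.0 and 29.8 in ATM-KO. Like all 5 proteases, it was highest in A3 and second in A1 among the ATM-WT tumours. Sytl5 was at 7.38 to 35.8 normalized counts in ATM-WT, and all 5 ATM-KO libraries list it at 0.

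Of the other granule proteases of mast cells, the 2 tested fell as well. Of 8 such genes 5 were in the table and 2 passed the minimum, Mcpt1 and Mcpt2, the chymases of mucosal mast cells. Both were lower, beside 24.3% of all genes tested. Mcpt2 reached the minimum only through its ATM-WT values, so this count describes the genes and does not test them as a group. Mcpt2 was at 505, 429, 774, 237 and 444 normalized counts in ATM-WT and at 4.09, 23.1, 1.52, 1.79 and 0 in ATM-KO, a log2 fold change of -6.85 ± 0.70 (limma adjusted p = 7.89e-06). Mcpt1 held 366, 414, 279, 160.3 and 269 in ATM-WT and 10.2, 42.5, 4.56, 9.82 and 14.3 in ATM-KO, a log2 fold change of -4.40 ± 0.49 (limma adjusted p = 1.55e-05). Per kilobase, their ATM-WT medians of 418 (Mcpt2) and 275 (Mcpt1) were above that of Tpsb2. Among ATM-WT tumours Mcpt2 was highest in A3 and second in A1, as Mcpt4 was, while Mcpt1 was highest in A2. In ATM-KO both were highest in A12, where Mcpt4 was at 5.55. Cma2, Mcpt8 and Prss34 had means under 10, and Mcpt9, Tpsg1 and Ctsg were not analysed here. Mcpt1 and Mcpt2 share 3.46% and 3.3% of their 31-base words with each other.

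The neighbours of the chymases on chromosome 14 moved in different directions. Of 6 genes tested in a list of the cluster, 3 were lower, Mcpt1, Mcpt2 and Gzmc, and 1 was higher, the granzyme gene Gzmb, which killer lymphocytes use. Of all genes tested 24.3% were lower and 22.1% higher. As said above, Mcpt2 reached the minimum only through its ATM-WT values. Gzmb was at 100.3 ± 75.4 and 311 ± 160 normalized counts, a log2 fold change of 1.78 ± 0.45 (limma adjusted p = 0.0058). Gzmc fell by 1.61, with adjusted p above 0.05 after quantile normalization (-0.98, limma adjusted p = 0.12) and without A3 (-1.38, limma adjusted p = 0.051) or A5 (-1.50, limma adjusted p = 0.051). By RefSeq gene coordinates, 15 other genes within 100 kilobases of the members were tested, none of them near Kit or Fcer1a. Of these 3 were higher and 5 lower, beside 22.1% and 24.3% of all genes tested, and Mcpt1 and Mcpt2 are among the 5. Sdr39u1 beside Cma1 fell by 2.69, while Gyg beside Cpa3 was higher by 0.73. The median log2 fold change of these neighbours was -0.60, beside 0.00467 for all genes tested. That median is the value of Gzmd, which did not pass (limma adjusted p = 0.68).

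Among the other surface receptors of mast cells, single genes differed in both directions. Of 10 tested outside the set, 3 were lower and 3 higher, shares close to the 24.3% and 22.1% of all genes tested, with a median log2 fold change of 0.23. Cd200r3 and Mrgprb2, both lower, reached the minimum only through their ATM-WT values. Cd200r3, an activating receptor of mast cells and basophils, was at 146, 123, 28.6, 84.2 and 128 normalized counts in ATM-WT, and in ATM-KO it was at 0 in 4 libraries and at 2.87 in A15 (-6.10 ± 0.61, limma adjusted p = 7.01e-06). Unlike the proteases, Cd200r3 was lowest in A3 among the ATM-WT tumours. Mrgprb2, the receptor through which mast cells answer peptides and drugs without IgE, was at 35.6 ± 12.7 and 4.01 ± 3.97 normalized counts (-3.19 ± 0.63, limma adjusted p = 0.0012). Il3ra, the interleukin-3 receptor alpha chain, fell by 1.18 (limma adjusted p = 0.0033). Il1rl1, the interleukin-33 receptor ST2, went the other way, from 587, 152, 565, 222 and 382 in ATM-WT to 2831, 3203, 4245, 3425 and 3051 in ATM-KO (3.30 ± 0.32, limma adjusted p = 5.98e-06). Csf2rb, the shared beta chain of cytokine receptors, was higher by 0.77 ± 0.20 (limma adjusted p = 0.0080).

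**Figure D3:**
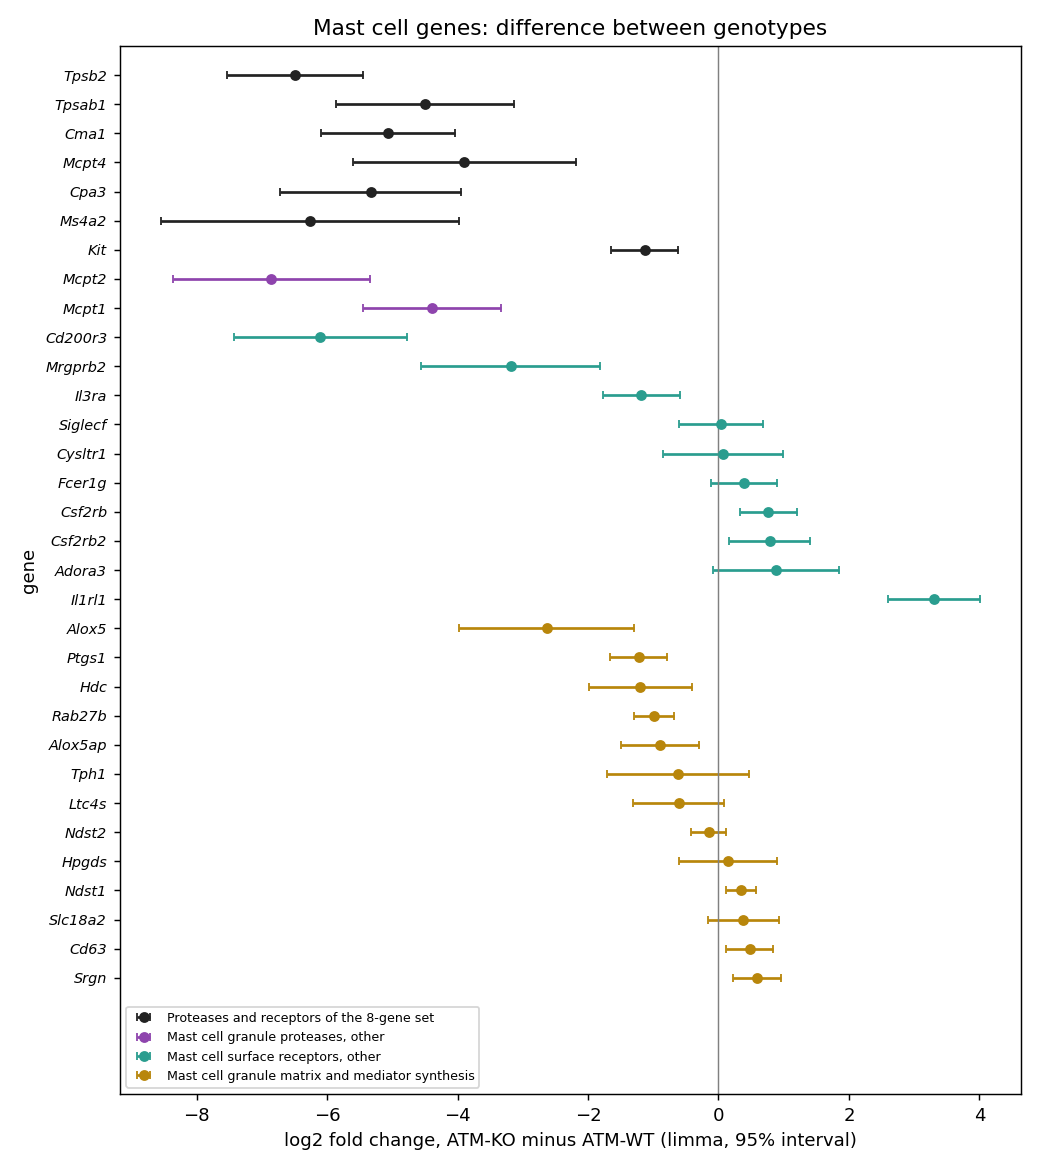
Differences between genotypes on log2(value + 1), negative where lower in ATM-KO, with 95% intervals from limma, n = 5 libraries per group, for the 7 tested genes of the set, the other granule proteases, the surface receptors and the genes of granule matrix and mediators. The proteases, Ms4a2, Cd200r3 and Mrgprb2 lie between -3.19 and -6.85, Kit lies at -1.13, and Il1rl1 lies at 3.30.

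Genes for the granule matrix and for mediators moved less. Of 13 tested, 5 were lower and 3 higher, beside 24.3% and 22.1% of all genes tested, with a median log2 fold change of -0.61. Alox5, the lipoxygenase of leukotriene synthesis, fell from 129 ± 34.2 to 27.2 ± 20.3 normalized counts (-2.64 ± 0.62, limma adjusted p = 0.0038), and Ptgs1, a cyclooxygenase of prostaglandin synthesis, from 1239 ± 402 to 508 ± 57.6 (-1.23 ± 0.20, limma adjusted p = 3.52e-04). Rab27b, which moves secretory granules, fell from 890.3 ± 182 to 441 ± 9.07 (-0.99 ± 0.14, limma adjusted p = 1.14e-04). Hdc, the enzyme that makes histamine, fell from 132 ± 68.0 to 54.0 ± 18.6 (-1.20 ± 0.36, limma adjusted p = 0.016) and was named after its values were seen. The serglycin gene Srgn, whose product holds the proteases in the granule, was higher at 1837 ± 357 than 1226 ± 299 (0.59 ± 0.17, limma adjusted p = 0.013). Ndst1, an enzyme of heparan sulphate chains, was higher by 0.35. Both calls were lost without ATM-WT libraries A2 and A4 (Srgn 0.40, limma adjusted p = 0.075, and Ndst1 0.29, limma adjusted p = 0.058), that of Ndst1 also after quantile normalization (0.24, limma adjusted p = 0.080). None of the 3 genes higher passed without A2 and A4. Ndst2, the related gene of the same list, did not pass (-0.15 ± 0.12, limma adjusted p = 0.33).

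Most transcription factors of mast cells did not pass the test. Of 12 tested, 2 were higher and 1 lower, beside 22.1% and 24.3% of all genes tested, with a median log2 fold change of -0.06. The number lower was 2 without A1, without A2, without A3, without A2 and A4 together, and with sample weights. Gata2, a GATA factor of mast cells and blood progenitors, was at 158, 106, 608, 115 and 118 normalized counts in ATM-WT, highest in A3 as the proteases were, and at 412, 549, 334, 398 and 266 in ATM-KO. Its log2 fold change of 1.16 ± 0.42 (limma adjusted p = 0.038) was lost without A2 and A4 (0.75, limma adjusted p = 0.19), in the limma fit without a trend and without any 1 of the libraries A1, A2, A4, A5, A11, A12, A13 or A14. Zfpm1, a GATA cofactor, was higher by 0.66 (limma adjusted p = 0.015), a call also lost without A2 and A4 (0.40, limma adjusted p = 0.080). Cebpa fell by 0.93 (limma adjusted p = 0.0016). Mitf was at 170.0 ± 43.9 and 233 ± 21.7 normalized counts and did not pass (0.50 ± 0.21, limma adjusted p = 0.071), and Gata1 was at 0 to 5.97 normalized counts in ATM-WT and at 0 to 2.68 in ATM-KO.

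Of 10 tested factors that feed and recruit mast cells, 4 were higher and 3 lower, beside 22.1% and 24.3% of all genes tested, with a median log2 fold change of 0.38. Kitl, which encodes stem cell factor, was at 867, 586, 1067, 779 and 706 normalized counts in ATM-WT and at 501, 469, 392, 476 and 356 in ATM-KO (-0.85 ± 0.16, limma adjusted p = 0.0011), and no ATM-KO value reached an ATM-WT value. Il33, the ligand of the receptor encoded by Il1rl1, fell from 10515 ± 4162 to 648 ± 141 (-3.96 ± 0.24, limma adjusted p = 2.11e-07). Cxcl12, a chemokine, fell by 2.47 (limma adjusted p = 1.49e-04). Tgfb1 was higher by 1.39 ± 0.18 (limma adjusted p = 6.30e-05). Of 18 tested genes of signalling below the IgE receptor, 4 were higher and 2 lower, with a median of 0.34. The phospholipase genes Plcg2 and Plcg1 fell by 1.46 and 0.92, while Pik3cd, Fyn and Grb2 were higher by 1.11, 0.68 and 0.37. The call of Fyn was lost without A2 and A4 (0.34, limma adjusted p = 0.052), and the number higher was then 2, against 7 without A1.

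Other cells that carry some of these genes were looked at by their own markers, beside 24.3% lower and 22.1% higher among all genes tested. Of basophil markers 3 of 4 tested were lower and 0 higher, namely Cd200r3, Il3ra and the integrin gene Itga2, and these 3 are also made by other cells. Cd200r3 reached the minimum only through its ATM-WT values, so this count describes the genes and does not test them as a group. The basophil protease gene Mcpt8 was at 0 to 11.6 normalized counts in ATM-WT and 0 to 8.18 in ATM-KO, so the groups overlapped. Prss34, also a basophil protease gene, was at 0 to 7.46 in ATM-WT, above 0 only in A1 and A4. No ATM-KO library had Prss34 above 0. The summed basophil markers were 745 to 1396 in ATM-WT and 221 to 343 in ATM-KO. Itga2, at 491 ± 241 and 63.7 ± 7.78, and Il3ra, at 406 ± 139 and 173 ± 46.1, made up most of these sums. Of eosinophil markers 1 of 3 tested was higher, Ear2, from 82.1 ± 51.2 to 702 ± 164 normalized counts (3.37 ± 0.46, limma adjusted p = 7.69e-05). Siglecf did not pass, at 91.8 ± 42.3 and 89.5 ± 17.5 (limma adjusted p = 0.93), and neither did Alox15. Ccr3 was at 0 to 5.90 normalized counts in ATM-WT and 0 to 1.78 in ATM-KO. The summed eosinophil markers were 94.3 to 251 and 534 to 1061, and Ear2 made up most of the ATM-KO sums.

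Kit is also made by melanocytes, interstitial cells of Cajal and blood progenitors. Their marker counts stand beside 24.3% lower and 22.1% higher among all genes tested. Of melanocyte markers 0 of 3 tested passed, their sums were 120 to 299 normalized counts in ATM-WT and 149 to 272 in ATM-KO, and Mlana was listed at 0 in 3 libraries of each group. Of interstitial cell markers 1 of 4 tested was lower, Gja1, a gap junction gene of many cell types, with sums of 6313 to 16199 and 4486 to 5400. Of blood progenitor markers 3 of 6 tested were lower, Hoxa9, Meis1 and Myb, and 1 was higher, Flt3, with sums of 2389 to 5107 and 1392 to 1728. Flt3 and Pdgfra, kinases of the same class as Kit, went from 36.2 ± 29.0 to 419 ± 32.4 normalized counts (3.87 ± 0.47, limma adjusted p = 3.28e-05) and from 1459 ± 528 to 848 ± 139 (-0.72 ± 0.22, limma adjusted p = 0.020). The call of Pdgfra was lost without ATM-KO library A12 (-0.63, limma adjusted p = 0.053). The part of these cells in the level of Kit was not tested.

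Of the markers of other cells in a tumour, those of epithelium and fibroblasts were mostly lower in ATM-KO, and most of the others did not pass the test. The shares among all genes tested were 24.3% lower and 22.1% higher. Epithelial markers were lower in 10 of 10 tested, with sums of 99030 to 289632 normalized counts in ATM-WT and 2165 to 3807 in ATM-KO, a median log2 fold change of -8.73. Among them, Krt6a, with an ATM-KO mean of 4.77, reached the minimum only through its ATM-WT values. Fibroblast markers were lower in 9 of 11 and higher in 0, with sums of 160674 to 580081 and 37742 to 109477. Macrophage markers were lower in 1 and higher in 1 of 10, with overlapping sums of 23137 to 68494 and 41470 to 61892. T cell markers were higher in 1 of 9 and endothelial markers lower in 1 of 9, and fat cell markers were lower in 1 of 3. Skeletal muscle markers were called in 0 of 8, with overlapping sums of 85.5 to 2513 in ATM-WT and 75.1 to 1522 in ATM-KO. The part of these compartments in the fall of the mast cell genes was not tested.

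**Figure D4:**
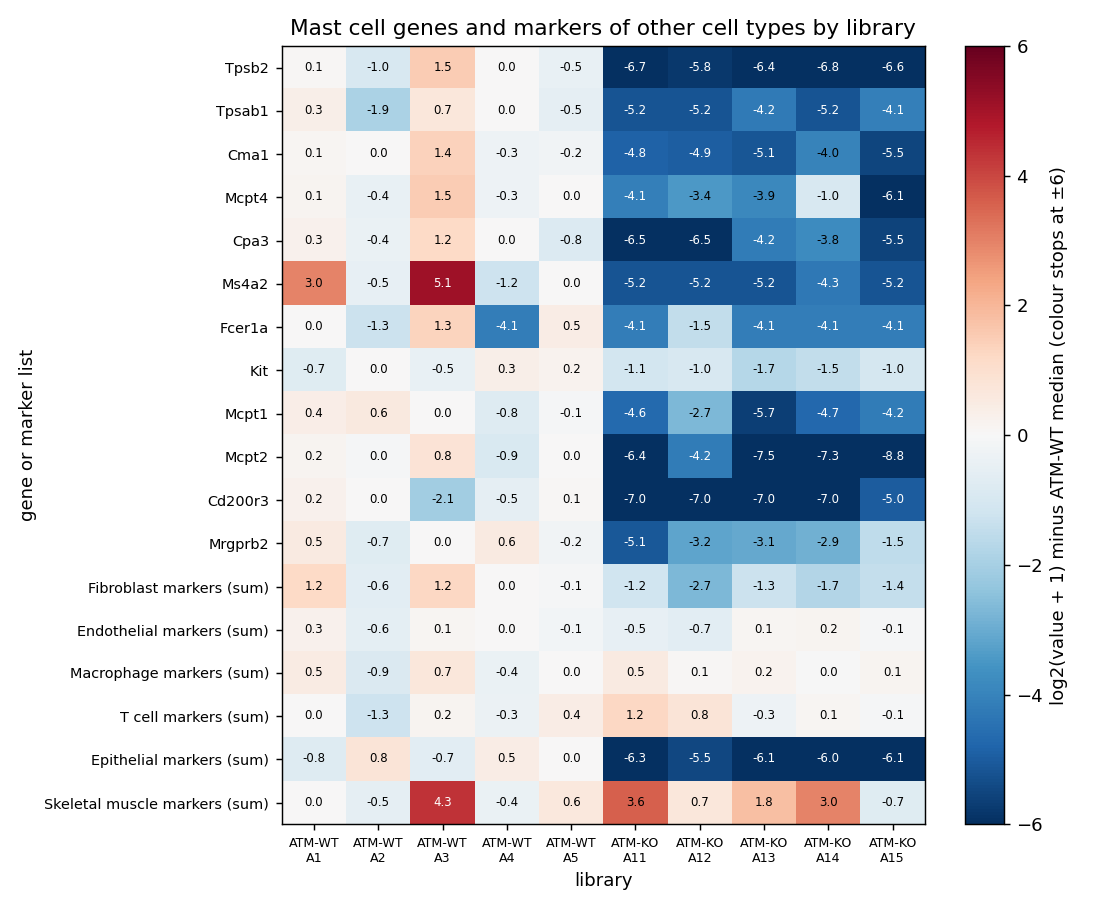
Each cell gives log2(value + 1) of a gene, or of the summed markers of a cell type, minus the median of the 5 ATM-WT libraries, with libraries as columns and the colour running from blue (lower) to red (higher). The proteases, Ms4a2, Mcpt1, Mcpt2 and Cd200r3 are low in the ATM-KO libraries together with the epithelial and fibroblast sums, Kit is less far below the ATM-WT median, and the macrophage sums of the groups overlap.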

How the data were processed

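RNA of 5 ATM-WT and 5 ATM-KO tumours of BBN963 was measured by RNA-seq. The authors deposited 1 table, whose signal values are normalized counts at or above 0 and not whole, so no count model was used. Their tools, per the submitters' processing notes, included Salmon, STAR and DESeq2. The genome build, as well as tool versions and roles, is not given in the sources used here. A column's name holds its genotype and a number absent from the sample titles, so each column was assigned to a group only.

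The test was limma 3.58.1 (R 4.3.3, eBayes with a mean trend) on log2(value + 1), for genes whose mean over the 10 libraries reached 10. P-values were adjusted by Benjamini-Hochberg over all genes tested, at a threshold of 0.05. The procedure was tested on simulated data. Single genes were also given an exact two-sided permutation test. The members, gene lists and tests were chosen with earlier results of these data known. Named genes are the members and, from each list, at most 5 past the threshold by smallest p. Of these, some are not reported here. For likeness, log2 values were centred on each gene's mean. The list of neighbours within 100 kilobases and the words shared between transcripts (31 bases, GENCODE M21) were added after seeing the data. Promoters are from RefSeq tables, and neighbours were picked by RefSeq gene coordinates. The authors' build is unknown. Alternatives covered the pseudocount, the minimum, the scaling, the eBayes settings, sample weights and leaving out libraries.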

Additional observations from a re-analysis of the deposited data

Results flagged for a closer look

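Within each group of 5 libraries, the highest and the lowest value of the 8 mast cell genes were set against the gap to the nearest other value, as a share of the whole range, with a limit of 0.71. Of the 16 groups looked at, 7 held such a library. Chance flags about 1 in 20 groups, a rate that holds for separate groups of normally distributed values without ties. The values were taken on the linear scale, where that shape was not checked. Of the 7, 4 are the same library, A3, and 2 are single values above 0 among 4 values tied at 0, which this measure always picks out, so the number is not read against that rate. ATM-WT library A3 stood above the others for Tpsb2 at 593 normalized counts (nearest 219), Cma1 at 226 (nearest 92.2), Mcpt4 at 199 (nearest 77.3) and Ms4a2 at 1230.5 (nearest 282). ATM-KO library A14 stood above the others for Mcpt4 at 34.8 (nearest 5.55) and, at a level near 1 read, for Ms4a2 at 0.814, where the other 4 ATM-KO libraries are listed at 0. ATM-KO library A12 stood apart for Fcer1a at 5.25, with the other 4 listed at 0.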

How the results depend on the processing

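Over the alternatives run, no fold change past the threshold changed direction, and the counts over all genes and over the members stayed within 1.5 times their values. The log2 fold changes over 20 alternatives ran from -6.84 to -5.33 for Tpsb2, -5.35 to -4.08 for Cma1, -4.58 to -3.12 for Mcpt4, -5.87 to -4.06 for Cpa3, -1.28 to -0.82 for Kit and -7.69 to -4.50 for Ms4a2, and over 19 from -5.24 to -2.93 for Tpsab1. The adjusted p of these 7 genes was at most 0.016 (Kit, quantile normalization). The pseudocount set most of these ends. For Fcer1a the exact permutation p ran from 0.016 to 0.087, and in 8 of its alternatives it was above 0.05. Quantile normalization took the all-gene median from 0.00467 to 0.15 (log2) and the share of higher genes among those called from 47.6% to 57.6%, and Kit from -1.13 to -0.82. The Atm log2 fold change, which is not past the threshold, ran from -0.21 to 0.12 and was above 0 after quantile normalization and without A2, A15 or A2 and A4 together. Among the other named genes, Atm included, 1016 fold changes kept their side of the threshold and 19 lost it. No paired analysis was possible because the columns carry no replicate number of the sample labels. With 1 read worth about 1 normalized count, and 2.46 in A2, differences among ATM-KO values of a few counts are not detectable at this depth.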
